A study of Mus musculus with 2 samples.

Results

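Acyl-CoA synthetases activate free fatty acids by joining them to coenzyme A. They are grouped by the chain length they prefer, into long-chain enzymes (Acsl), medium-chain enzymes (Acsm) and short-chain enzymes that use acetate (Acss). The 10 genes described here, Acsl1, Acsl3, Acsl4, Acsl5, Acsl6, Acss1, Acss2, Acsm1, Acsm3 and Acsm5, were taken by symbol from the deposited table of regenerating mouse liver. They are 10 of the 33224 gene symbols of that table, which held 38016 loci. Each was found in 1 row. The rule used symbols and no measured value, but the family was chosen with earlier results of these data known.

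The study asked what PPARβ, a nuclear receptor that is activated by fatty acids, does in liver regeneration. RNA was sequenced from liver 48 hr after partial hepatectomy (PH), the surgical removal of part of the liver, with 1 library from wild type (WT) and 1 from PPARβ-null (KO) mice. The mice of both genotypes were male C57BL/6 animals, fed ad libitum and aged 4 months by the sample labels, 3 months by the series text and 3 to 5 months by the housing protocol. The labels give the genotypes as wild type and PPARbeta-null and name no further allele or agent. How the null allele was made, whether the receptor was missing from every cell, and whether a library came from 1 mouse or a pool are not given in the sources used here, and no liver without PH was analysed here.

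With 1 library per genotype there was no replicate check, so every difference below sets 1 library against 1 other library, and no test between genotypes was possible. Levels are FPKM, fragment counts divided by exon length and by the mapped fragments of the library, and can be compared between genes because they are per length. A difference was called when the larger FPKM was more than 1.5 times the smaller and their mean reached at least 0.1 FPKM. The 95% counting intervals cover the sampling of fragments only, not the spread between mice. By the spacing of the lowest values of 4012 single-exon genes, 1 FPKM on 1 kb of transcript corresponded to 53.0 WT fragments and 55.5 KO fragments. The targeted gene Ppard had 2.67 FPKM in WT and 2.42 in KO (KO/WT 0.906, counting interval 0.792 to 1.03), so its total mRNA level is no check of the genotype labels. The KO values of most genes were lower, and over the 11723 expressed genes (those whose mean reached 1 FPKM) the log2 KO/WT had a median of -0.24. Centred values, from which that median was taken off, are therefore given for the members and for the counts of the lists, and ratios are those as deposited.

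Long-chain acyl-CoA is the common entry to opposite fates. It is passed to carnitine for oxidation in mitochondria, or it is built into triglycerides, phospholipids and cholesterol esters. Acetyl-CoA made from acetate in the cytosol and nucleus serves fatty acid and sterol synthesis and the acetylation of histones, while medium-chain enzymes act in the mitochondrial matrix, also on aromatic acids such as benzoate. In liver, Acsl1 is the textbook PPARα target among these genes, and Acsl5 and Acss2 are known targets of SREBP factors, the regulators of lipid and sterol synthesis.

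The 5 members called were Acss2, Acsl3, Acsl4 and Acsl5, all lower in KO, and Acsl1, the 1 member that was higher. Whole liver holds several cell types, and in such samples fewer cells of a type and less RNA per cell cannot be told apart. Acsm1, Acsm3 and Acsm5 lay within 1.5-fold, and Acsl6 and Acss1 were below the filter in both libraries. Of the 15727 genes tested, 26.0% were lower in KO and 6.05% higher by the same rule, against 4 and 1 of the 8 members that passed the filter. After centring, the shares over all genes were 17.6% and 9.64%, and 3 members were lower (Acss2, Acsl3, Acsl4) and 2 higher (Acsl1, Acsm3). Lower genes made up 81.1% of all calls as deposited and 64.6% after centring. The median log2 KO/WT of the 8 members was -0.49, beside -0.25 over all genes tested.

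**Figure D1:**
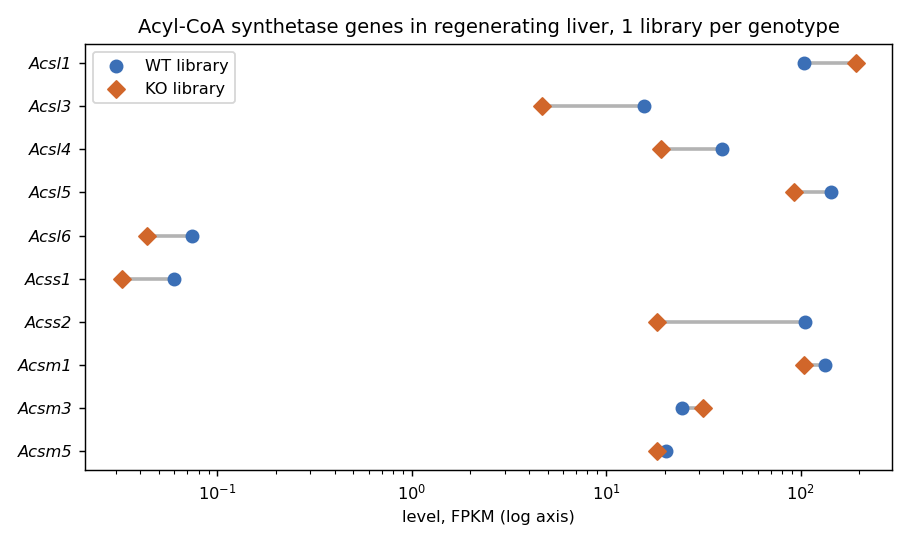
FPKM of each member (log axis) in the WT library (circles) and the KO library (diamonds), with a line joining the values of a gene. Acss2 has the widest gap, from 105 in WT to 18.2 in KO, Acsl1 is the member whose KO point lies farthest to the right of its WT point, and Acsl6 and Acss1 lie below 0.1 FPKM in both libraries.

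The promoters of Acsl1, Acsl5 and Acss2 are shown because these genes are the known targets of PPARα and SREBP factors among the members, and they were called in opposite directions. The sequences are RefSeq promoters (GRCm38.p6), matched exactly to NCBIM37 for their coordinates, on the plus strand and 5′ to 3′. They run up to the base before the RefSeq start, except for Acss2, where the stretch ends at the first annotated exonic base. The promoter at the first RefSeq start of Acsl1 (chr8:47556141-47556390) held none of the motifs searched and is not printed. Capitals mark motif letters found on either strand, namely CCAAT boxes (CCAAT) and the sterol element (TCACNCCAC).
Acsl1, second RefSeq start, chr8:47576070-47576319: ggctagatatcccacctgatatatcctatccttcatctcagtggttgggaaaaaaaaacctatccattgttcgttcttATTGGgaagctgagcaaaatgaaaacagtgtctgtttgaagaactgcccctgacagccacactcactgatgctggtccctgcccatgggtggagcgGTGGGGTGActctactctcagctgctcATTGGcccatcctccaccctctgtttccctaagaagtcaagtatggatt
Acsl5, chr19:55327609-55327858: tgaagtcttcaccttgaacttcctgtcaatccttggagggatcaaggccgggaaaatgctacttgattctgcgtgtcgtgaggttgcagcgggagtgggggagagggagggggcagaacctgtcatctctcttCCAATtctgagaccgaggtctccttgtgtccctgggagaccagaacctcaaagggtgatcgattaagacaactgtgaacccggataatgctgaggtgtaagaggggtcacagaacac
Acss2, chr2:155343529-155343683: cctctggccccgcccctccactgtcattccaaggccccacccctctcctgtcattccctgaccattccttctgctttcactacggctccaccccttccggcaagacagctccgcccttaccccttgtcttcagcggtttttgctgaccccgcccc
Of the 10 members, which have 13 promoters in the table, Acsl1 alone held an exact match to the sterol element, as GTGGGGTGA on the printed strand 76 bases before its second start. Over all 32851 promoters, 1.05% held it in the same 250 bases. These shares are of single promoters, while members are counted as genes with a match in any of their promoters. A CCAAT box, which 33.9% of all promoters held, was present in 8 members (Acsl1, Acsl3, Acsl5, Acsl6, Acsm1, Acsm3, Acsm5 and Acss2). That of Acss2 lay 73 bases before the start, in the part that is annotated as exonic and is not printed. An E box (CACGTG), in 6.02% of all promoters, was found in Acsm5, 132 bases before its start. The core of a direct repeat with a spacing of 1 base, GGTCANAGG, as bound by PPAR with RXR, was in 1.43% of all promoters and in none of these members. No match in a member overlapped another, and a match describes the sequence only. Only exact matches to these letters were searched, so a promoter without a match is not shown to lack a site of that kind.

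Acss2, the acetyl-CoA synthetase of cytosol and nucleus, had 105 FPKM in WT and 18.2 in KO. It was 5.76-fold higher in WT (counting interval 5.54 to 5.99), and 1.80% of the genes tested had a lower KO/WT ratio. Its rank by level moved from 784 in the WT library to 3171 in the KO library, and its log2 KO/WT was -2.52 as deposited and -2.28 after centring. Acss2 lies on the plus strand of chromosome 2 (NCBIM37, 155343684 to 155411460). Gss, the glutathione synthetase gene on the opposite strand, shares 229 of the 10163 exonic bases of Acss2 and had 52.2 FPKM in WT and 39.3 in KO. Whether the authors counted by strand is not stated in the sources used here, so fragments from such shared bases cannot be assigned.

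Acss1, the mitochondrial acetyl-CoA synthetase (minus strand of chromosome 2, 150443841 to 150494236), was near the limit of detection. Its level was 0.0601 FPKM in the WT library, an estimated 11.5 fragments, and 0.0321 FPKM in the KO library, an estimated 6.44. The KO/WT ratio of 0.534 had a counting interval from 0.147 to 1.38, so no difference was detectable at this depth. The cytosolic gene was thus far above the mitochondrial one in both libraries. The ratio of Acss1 to Acss2, a comparison that does not depend on the scaling of the libraries, was 3.08-fold higher in KO. Its counting interval from 1.17 to 8.08 is a normal approximation, which is rough at so few Acss1 fragments. A difference in this ratio was therefore not resolved at this depth. Of the protein deacetylases that act on these enzymes, Sirt3 had 28.4 FPKM in WT and 24.8 in KO and Sirt1 4.79 and 4.47, both within 1.5-fold.

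Acsl1, a long-chain enzyme of the endoplasmic reticulum and the mitochondrial outer membrane, had 104 FPKM in WT and 192 in KO. The KO/WT ratio was 1.84 (counting interval 1.81 to 1.87), and 97.4% of the genes tested had a lower ratio. Its log2 KO/WT was 0.88 as deposited and 1.11 after centring, and its rank moved from 789 to 355. The gene is on chromosome 8 (47556395 to 47621405, plus strand). The estimated fragments were 21550 in WT and 41416 in KO, so counting error is small beside this difference.

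Acsl5, found at mitochondria and the endoplasmic reticulum, was the highest member in WT, with 143 FPKM, and had 92.4 in KO. The WT/KO ratio of 1.55 (1.51 to 1.58) lay just past the 1.5-fold line. Its log2 KO/WT of -0.63 became -0.39 after centring, where Acsl5 was no longer called. Acsl5 is on the plus strand of chromosome 19 (55327859 to 55371117), and Zdhhc6 on the opposite strand overlaps its span but shares no exonic base with it.

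Acsl4, which prefers arachidonic acid and other polyunsaturated fatty acids, had 39.5 FPKM in WT and 19.2 in KO. The WT/KO ratio was 2.06 (1.99 to 2.13), with a log2 KO/WT of -1.04 as deposited and -0.80 after centring. Its position is chromosome X, 138752536 to 138825078, minus strand. Acsl3, which is found at the endoplasmic reticulum and lipid droplets, had 15.6 FPKM in WT and 4.68 in KO, and was 3.33-fold higher in WT (3.07 to 3.60). Its log2 KO/WT was -1.71, and -1.48 after centring. Its row also names Utp14b on the same strand, so the value belongs to both genes, although they share only 206 exonic bases, 5.72% of those of Acsl3 (chromosome 1, 78654400 to 78703562, plus strand). Acsl6, an enzyme best known from brain (chromosome 11, 54117300 to 54178258, plus strand), had 0.0737 FPKM in WT, from an estimated 22.7 fragments, and 0.0435 in KO, from 14.0. Its KO/WT ratio of 0.590 had an interval from 0.277 to 1.18, and no difference was detectable.

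The 5 Acsl genes summed to 302 FPKM in WT and 308 in KO, a KO/WT ratio of 1.02, while their makeup differed. Acsl1 held 34.5% of the sum in WT and 62.3% in KO, a difference of 27.7 percentage points that does not depend on the scaling of the libraries. Acsl5 held 47.2% and 30.0%, Acsl4 13.1% and 6.23%, and Acsl3 5.15% and 1.52%. The leading gene was thus Acsl5 in the WT and Acsl1 in the KO library. The ratio of Acsl1 to Acsl5 was 0.731 in WT and 2.08 in KO, which is 2.84-fold higher (2.77 to 2.91). It was 3.78-fold higher in KO for Acsl1 to Acsl4 (3.64 to 3.92) and 6.11-fold for Acsl1 to Acsl3 (5.64 to 6.62). These pairs were chosen after their values were seen.

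**Figure D2:**
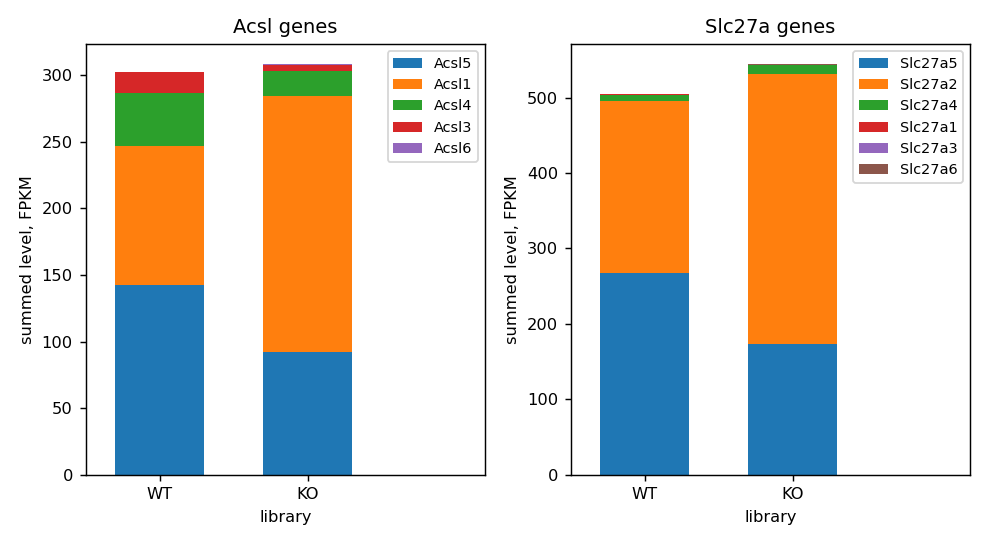
Summed FPKM of the 5 Acsl genes (left) and the 6 Slc27a genes (right) in the WT and KO libraries, with 1 coloured segment per gene, drawn from 0. The Acsl totals are close, 302 and 308, while the segment of Acsl1 grows from 104 to 192 and that of Acsl5 shrinks from 143 to 92.4.

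The 3 medium-chain members differed less between the libraries. Acsm1, which also activates benzoate, had 133 FPKM in WT and 104 in KO (KO/WT 0.782, 0.763 to 0.801). Acsm3 had 24.5 in WT and 31.5 in KO (1.29, 1.24 to 1.34), and Acsm5 20.2 and 18.3 (0.906, 0.861 to 0.953). All were within 1.5-fold as deposited. Centring brought Acsm3 to 1.52-fold higher in KO, past the line, and turned the sign of Acsm5 from a log2 KO/WT of -0.14 to 0.094. Acsm1 stayed below 0, at -0.35 as deposited and -0.12 after centring. Eri2, on the opposite strand, shares 1962 of the 4936 exonic bases of Acsm3 (39.7%) and had 6.84 FPKM in WT and 3.51 in KO, so the value of Acsm3 is uncertain to that extent.

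The Acsm genes lie side by side on the plus strand of chromosome 7, in the order Acsm5 (126669818 to 126687307), Acsm2, Acsm1 (126750540 to 126806029), Acsm4 and Acsm3 (126904437 to 126931027), within 261 kb. The neighbours differed widely in level. Acsm2 had 0.892 FPKM in WT and 0.607 in KO, and Acsm4 0.0145 and 0.0212, below the filter. Acsm1 held 74.6% of the sum of the 5 Acsm genes in WT and 67.4% in KO, and Acsm3 13.7% and 20.3%. That sum was 179 FPKM in WT and 155 in KO (KO/WT 0.864). In spite of the close arrangement, no stretch of 50 or 100 bases of an Acsm member's longest coding transcript occurred in a coding transcript of another gene. Transcripts were read in their own direction only, so this search could not see bases shared with a gene on the opposite strand, such as Eri2.

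Glycine conjugation uses the acyl-CoA that Acsm enzymes make from aromatic acids. Of its 3 genes 1 was lower, 1 higher and 1 within 1.5-fold, also after centring, with a median log2 KO/WT of -0.35 (-0.11 centred). Glyat, the glycine N-acyltransferase, had 128 FPKM in WT and 101 in KO (KO/WT 0.786), beside 0.782 for Acsm1. Gm4952, annotated as related to it, had 19.6 and 47.0, and Keg1 had 45.3 and 15.4.

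**Figure D3:**
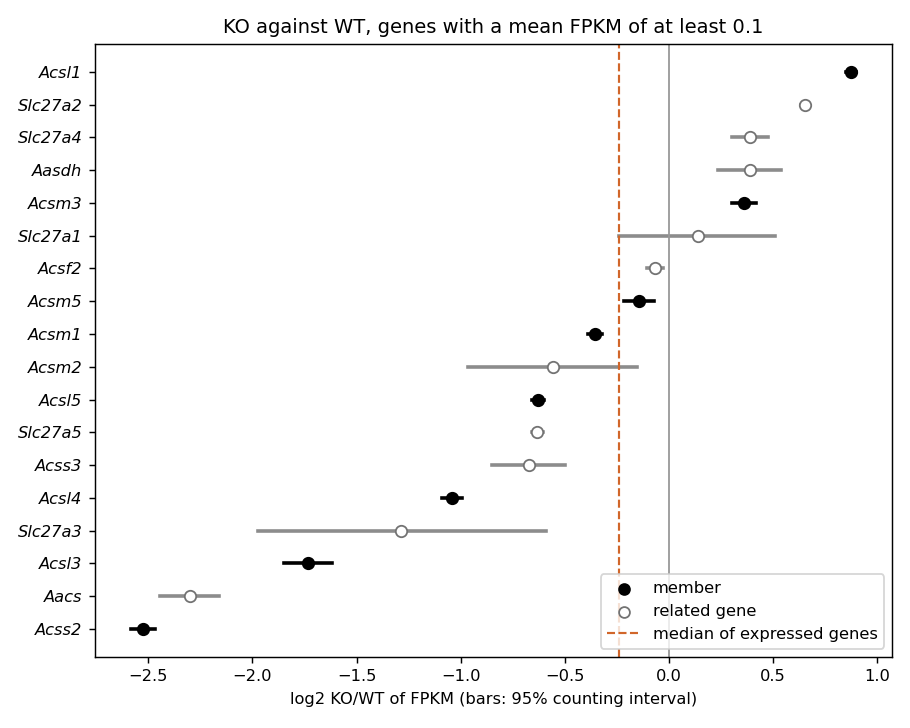
Log2 KO/WT of FPKM, without a pseudocount, of the members (filled) and related genes (open) that passed the filter, ordered by value. Bars are 95% counting intervals, the solid line marks equal levels and the dashed line the median of expressed genes, -0.24. Acss2 and Aacs lie farthest to the left, and Acsl1 and Slc27a2 farthest to the right.

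Other enzymes that activate fatty or keto acids were read from a list of 15 genes, of which 14 were found and 10 passed the filter. KO had the lower level of 4 and the higher level of 1 of these past the line. Their median log2 KO/WT was -0.28 as deposited and -0.055 after centring. Aacs, which activates acetoacetate in the cytosol for lipid synthesis, had 13.6 FPKM in WT and 2.77 in KO, 4.93-fold higher in WT (4.47 to 5.44). The ratio of Aacs to Acss2 was 0.130 in WT and 0.152 in KO, a 1.17-fold difference between the libraries. Acss3, a mitochondrial short-chain enzyme, had 5.20 and 3.26, 1.59-fold higher in WT (1.41 to 1.80), and was within the line after centring (log2 KO/WT -0.43). It held 4.71% of the Acss sum in WT and 15.1% in KO, while that sum went from 110 to 21.5 FPKM. After centring, 2 of the 10 were lower (Aacs and Slc27a3) and 3 higher (Slc27a2, Slc27a4 and Aasdh).

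The Slc27a genes encode fatty acid transport proteins that also act on very long-chain fatty acids or bile acids. Slc27a2, the very long-chain enzyme of liver, had 227 FPKM in WT and 359 in KO, 1.58-fold higher (1.56 to 1.60), and was the 1 related gene called higher. Slc27a5, which activates bile acids before their conjugation, had 268 in WT and 173 in KO, 1.55-fold higher in WT, and like Acsl5 was within the line after centring (log2 KO/WT -0.39). Slc27a2 held 65.9% of the Slc27a sum in KO, 20.9 percentage points above its share in WT, and Slc27a5 held 53.0% in WT and 31.8% in KO, while the sum was 505 and 544 FPKM. As in the Acsl genes, the leading gene of the KO library was not that of the WT library. Slc27a3 had 0.515 and 0.212 FPKM (2.44-fold higher in WT). Slc27a4 had 8.74 and 11.5, within 1.5-fold as deposited but past it after centring (log2 KO/WT 0.62), and Slc27a1 had 0.768 and 0.847, within 1.5-fold.

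The rest of the list was within 1.5-fold as deposited or too low to be compared. Acsf2, whose row also names Rsad1, had 66.0 FPKM in WT and 63.1 in KO. Aasdh had 2.87 and 3.75, past 1.5-fold after centring only (log2 KO/WT 0.61). Slc27a6 had 0.0349 and 0.00698 and Acsbg1 0.0216 and 0.0153, below the filter, and Acsbg2 was listed at 0 in both libraries. Acsf3 was not analysed here.

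The genes that supply or use acyl-CoA were read from lists, which are described by counts and medians alone. Lipogenesis from acetyl-CoA, the route that Acss2 feeds, had 10 of 10 measured genes lower and a median log2 KO/WT of -1.64. Scd1, the stearoyl-CoA desaturase, had 628 FPKM in WT and 210 in KO. Slc25a1, the mitochondrial citrate carrier, had 125 and 76.3, and Thrsp, a lipogenic protein responsive to thyroid hormone, 156 and 3.95. Acly, which makes cytosolic acetyl-CoA from citrate, had 118 and 22.7 in a row whose status is FAIL, so that the authors' own comparison gave no result there, and it is named, with its values already known, because it supplies the same product as Acss2. The ratio of Acss2 to Acly, with the same limit, was 0.890 in WT and 0.805 in KO.

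Of 13 SREBP2 targets, genes of sterol synthesis and uptake, 13 were lower, with a median of -2.22. Sc5d had 353 FPKM in WT and 65.1 in KO, Fdps 295 and 53.9, and Insig1 205 and 31.3. The value of Acss2, -2.52, lay between the lowest (-4.12) and the highest (-1.15) of these genes, and so did that of Acsl3. Those of Acsl4 and Acsl5 lay above this range. After centring, the medians of the lipogenic and SREBP2 lists were -1.41 and -1.98, with 9 of 10 and 13 of 13 genes lower.

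In the carnitine shuttle and among PPAR targets of the liver most genes had a log2 KO/WT above 0, 6 of 6 and 18 of 19. Of the 6 genes of the carnitine shuttle, which carries long-chain acyl groups into mitochondria, 4 were higher and none lower. The median log2 KO/WT was 0.75, and 0.99 after centring, with 5 higher. Crot, the peroxisomal carnitine octanoyltransferase, had 137 FPKM in WT and 323 in KO, in a row that also names Gm15611. The lowest log2 KO/WT of the shuttle, 0.057, also came from a row that names more than 1 gene. Cpt1a, the first step of the shuttle, had 55.2 and 86.9, and Cpt2, the step on the inner membrane, had 64.2 and 87.3, which was within 1.5-fold. Of 19 PPAR targets of the liver 12 were higher and none lower, with a median of 0.95. After centring 17 were higher and the median was 1.18. Fabp1, the fatty acid binding protein of liver, had 835 FPKM in WT and 2743 in KO. These targets ranged from -0.49 to 3.43, which takes in the values of Acsl1 (0.88), Acsm3, Acsm5 and Acsm1.

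Glycerolipid synthesis, the other user of long-chain acyl-CoA, was mixed, with 3 of 13 genes lower and 2 higher and a median of -0.18 (2, 2 and 0.060 after centring). Its most abundant genes were within 1.5-fold. Dgat2, which makes triglyceride, had 129 FPKM in WT and 120 in KO, and the acyltransferases Agpat3 and Agpat2 had 94.4 and 113, and 92.2 and 111. None of the 5 acyl-CoA binding proteins was called, also after centring. Dbi, the most abundant of them, had 798 and 580, Acbd5 49.2 and 51.2, and Acbd4 21.1 and 24.4.

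**Figure D4:**
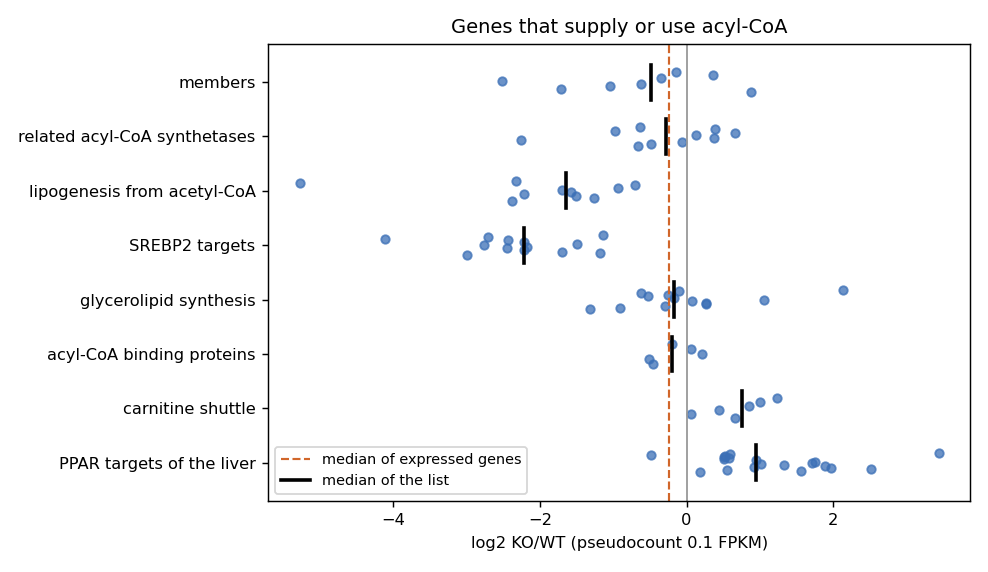
Log2 KO/WT (pseudocount 0.1 FPKM) of the genes of each list that passed the filter, with 1 point per gene. The black bar is the list's median and the dashed line the median of expressed genes. The lipogenic and SREBP2 lists lie left of 0 in full, the carnitine shuttle right of it, and the members spread from -2.52 to 0.88.

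The 8 hepatocyte markers, which define the labelled tissue, were the most abundant, with a sum of 23042 FPKM in WT and 25512 in KO, and 2 of them were lower and 1 higher in KO, also after centring. Markers of other resident cells had lower sums in KO. Macrophage markers summed to 76.5 and 44.2 FPKM (7 of 8 lower, 5 after centring), endothelial markers to 28.4 and 17.5 (5 of 6, 3 after centring) and stellate cell markers to 31.9 and 13.9 (3 of 6, 2 after centring). Of the stellate cell markers, the collagen genes Col1a1 (8.56 and 1.75 FPKM) and Col1a2 (7.68 and 1.47) differed most. The row of Col1a2 has the status FAIL, as that of Acly does. Lrat was also lower, while Des, Rgs5 and Pdgfrb were within 1.5-fold. Cholangiocyte markers summed to 29.8 and 25.7 (3 of 5 lower, 2 after centring) and erythroid markers to 506 and 419 (1 of 6 lower and 1 higher, also after centring). The lower erythroid marker, Slc4a1, had 0.158 and 0.0461 FPKM, close to the filter, and the higher one, Alas2, 20.6 and 37.5. Epb4.2 was at 0 in KO but had only an estimated 1.53 fragments in WT, which is no measured difference. The 7 lymphocyte markers summed to 1.42 and 0.865 FPKM (4 of 4 that passed the filter lower, 3 after centring). Ptprc, the most abundant, had 0.770 and 0.506. Cd3g, Cd79a and Cd79b had an estimated 8.49, 10.6 and 11.7 fragments in WT, and their counting intervals took in equal levels. Acsl3, Acsl4, Acsl5 and Acss2 were lower in the same library as the sums of these resident cell markers, and the part of these cells in their values was not tested. Acsl1 is also an adipocyte gene. Of the 6 adipocyte markers, Lep was listed at 0 in both libraries, and Adipoq, Plin1 and Cfd had 0.0256, 0.0245 and 0.312 FPKM in WT and were at 0 in KO. For Adipoq and Plin1 these WT levels stand for an estimated 1.75 and 2.48 fragments, so their 0 in KO is no measured difference. The adipocyte sum of 21.5 FPKM in WT and 25.2 in KO came mostly from Fabp4, with 18.1 and 17.4, and Cidec, 2.54-fold higher in KO with 3.08 and 7.84, which are not confined to adipocytes. The part of adipocytes in the value of Acsl1 was not tested.

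Across scalings of the libraries, Acsl1 stayed higher and Acss2, Acsl3 and Acsl4 lower in KO past the 1.5-fold line. With equal upper quartiles the log2 KO/WT of Acsl1 was 1.08 and that of Acss2 -2.32, while Acsl5 (-0.43) was within the line and Acsm5 (0.060) turned its sign. With equal sums of FPKM no member's call or sign differed from that as deposited. Lower genes were 67.5% of all calls with equal upper quartiles and 78.9% with equal sums. The call of Acsl5 and the sign of Acsm5 thus rested on the scaling, while the makeup of the Acsl sum did not.

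**Figure D5:**
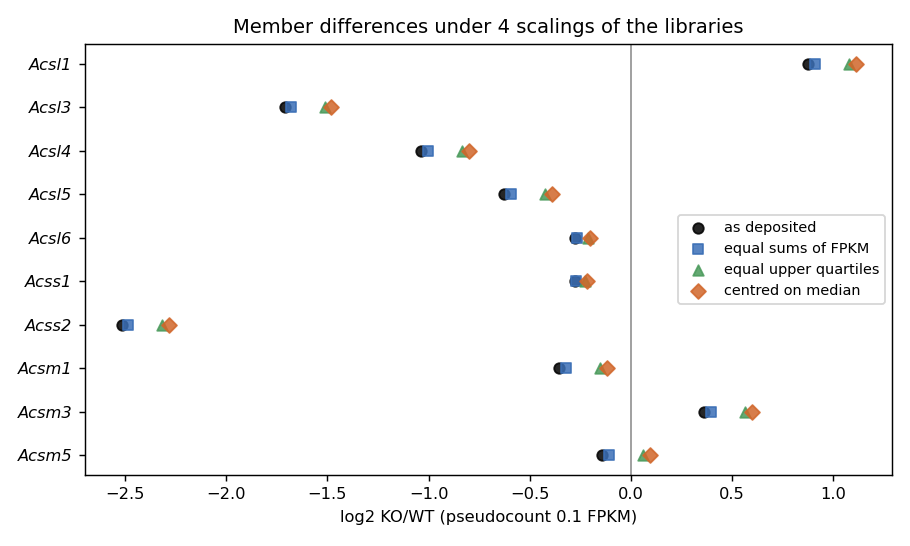
Log2 KO/WT (pseudocount 0.1 FPKM) of each member as deposited and under the other scalings of the KO library. Acsl1 lies right of 0 and Acss2, Acsl3, Acsl4 and Acsl5 left of 0 under each of them, and Acsm5 crosses 0 with equal upper quartiles and with centring.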

How the data were processed

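Total RNA of WT and KO livers was made into TruSeq libraries and sequenced with 100 bp reads, paired end per the labels and single end per the paper's methods. Reads were mapped by the authors with TopHat (2.0.0 in the submitters' processing notes) on the mouse build NCBI37 (mm9). They assembled transcripts with Cufflinks 1.3.0 and estimated 1 FPKM per locus and library with Cuffdiff, and these deposited FPKM values are the ones used. The deposited table also holds the authors' own comparison (fold change, statistic, p-value, q-value and a significance flag), which was not used. The 21 loci with the status HIDATA were left out, those with other statuses (NOTEST and FAIL among them) were kept with their FPKM, 2302 loci carried no symbol, and the joint value of 850 loci with more than 1 symbol was used for every symbol they name. Rows of a symbol were summed.

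Ratios are of FPKM as deposited. Log2 values used a pseudocount of 0.1 FPKM, which understates differences of low genes. It can thereby enlarge the gap between the log2 values of a low and a higher gene. Counts are of genes whose mean reached 0.1 FPKM, and centring used those whose mean reached 1. Fragments were estimated from FPKM, the longest coding transcript in GENCODE vM1 (NCBIM37) and the depth, and intervals are exact binomial intervals of the split of fragments between the libraries at 95% confidence. Intervals of pair ratios are normal approximations on the log2 scale from the same fragments. Motifs were searched in the 250 bases before RefSeq starts. Coordinates are those of the annotation, counted from 1.

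The members and all lists were chosen with earlier results of these data known. The genes named were every member, every related synthetase, and the 3 of highest mean FPKM in each other list, of which some are not reported here. Alternatives covered the fold, the filter, the pseudocount, the scaling of the libraries and joint loci. The tools were scipy 1.17.1, pandas 2.3.3, numpy 2.4.6 and matplotlib 3.10.9 in Python 3.11.15. The recovery of a shift of all genes and the calls after centring were tested on simulated libraries without spread between mice. The depth estimate, the intervals and the motif search were not tested in this way. Protein sequences were not used here.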

Additional observations from a re-analysis of the deposited data

How the results depend on the processing

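No paired analysis was possible because there was 1 library per genotype, and for the same reason no library could be left out. The count of members lower in KO ranged from 3 to 6 around 4. The count higher was 0 with a 2-fold line and 2 after centring, in place of 1. The members' median log2 KO/WT of -0.49 was -0.32 without the filter, -0.29 with equal upper quartiles, -0.46 with equal sums, -0.25 after centring and -0.35 with joint loci left out. That of the related genes, -0.28, was -0.070, -0.087 and -0.055 without the filter, with equal upper quartiles and after centring, -0.064 when a mean of 1 FPKM was asked for, and -0.49 with joint loci left out. The difference in the share of Acsl1 was 26.8 percentage points without the joint locus of Acsl3, in place of 27.7. The log2 KO/WT of Acss1 minus that of Acss2 was 2.24 with the pseudocount of 0.1 FPKM, which is above both levels of Acss1 (0.0601 and 0.0321 FPKM). It was 1.79 with a pseudocount of 0.01 FPKM and 1.62, or 3.08-fold, without one. The pseudocount thus enlarged this difference, and the few fragments of Acss1 limit it. These shifts follow from the genes left out or added, the factor on the KO library or the pseudocount that each setting changes. Single members changed sign in 2 of 69 alternatives, both for Acsm5. Depth limits the values of Acsl6 and Acss1.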
